A study of Mus musculus with 13 samples.

Results

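The contractile apparatus of smooth muscle was described here through 10 genes chosen by name: Acta2, Myh11, Cnn1, Smtn, Lmod1, Mylk, Des, Synpo2, Myl9 and Tpm2. They were 10 of the 54532 genes in the count table, and all 10 were among the 15811 genes with enough counts to be tested. Expression was measured by RNA sequencing of aortas from 13 mice, 1 library each, 6 labelled Ad-sham and 7 labelled Ad-FAM3A. All 13 mice were ApoE-/- (ApoE knockout), were 10 weeks old at the start and received angiotensin II (AngII), a peptide that raises blood pressure, from a subcutaneous pump at 1000 ng/kg/min for up to 28 days, a treatment used to produce abdominal aortic aneurysm. Ad-sham mice received 5 tail vein injections of an adenovirus with an empty vector. Ad-FAM3A mice received as many injections of an adenovirus in which the EF1A promoter drives mouse Fam3a with a FLAG tag, followed by an IRES and mCherry. The virus was given systemically and the promoter is not restricted to smooth muscle. Uninfused or uninjected mice were not part of the samples used here, and the sex of each mouse was not given in the labels. The question of the comparison was how FAM3A, a secreted metabolic protein, affects gene expression in the aorta.

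Smooth muscle cells of the aortic media contract when a rise in calcium leads to activation of myosin light chain kinase. The kinase phosphorylates the regulatory light chain of smooth muscle myosin, and the myosin then pulls on thin filaments of actin and tropomyosin that are tied to dense bodies and to plaques at the membrane. These genes are high in contractile smooth muscle cells and are known to be lowered when the cells change to a synthetic state, so they are widely used as markers of the contractile phenotype. Many of them are controlled by serum response factor with its cofactor myocardin, which binds a short sequence called the CArG box.

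The promoters of Acta2 and Myl9 are shown because they were the member promoters with a CArG box or a near match to it in the window searched. The window ran from 250 bases before to 50 bases after each start site (RefSeq, GRCm38.p6), and 9 of the 10 genes had an entry, while Myh11 did not. The capitals mark the boxes, and positions are counted backwards from -1, the base before the start site. In Myl9 a full CArG box starts at -161 and a near match, with 1 base of its A/T core being G or C, at -99. In Acta2 near matches start at -84 and -34. The stretch of Acta2 is chr19:34255374-34255473 on the minus strand and that of Myl9 is chr2:156775264-156775463 on the plus strand, both written 5′ to 3′ and ending at the base before the start site:
Acta2: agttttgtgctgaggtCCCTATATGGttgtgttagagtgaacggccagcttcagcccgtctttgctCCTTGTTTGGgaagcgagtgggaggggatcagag
Myl9: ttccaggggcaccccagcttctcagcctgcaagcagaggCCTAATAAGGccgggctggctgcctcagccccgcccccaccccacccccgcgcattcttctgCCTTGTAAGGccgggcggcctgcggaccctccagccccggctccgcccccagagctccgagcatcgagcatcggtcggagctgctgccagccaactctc

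The full box was present in 1.63% of the 32851 promoters of that table and in 1 of the 9 member promoters, on either strand. Near matches were present in 8.50% of all promoters and in 2 of 9. The letters TATAAA occurred in 13.6% of all promoters and, among the members, in Synpo2 only. GGAATG, the core bound by TEAD factors, occurred in 14.7% of all promoters and in those of Acta2, Lmod1, Mylk and Smtn. CACGTG, an E-box, occurred in 7.15% of all promoters and in 0 of 9. A match describes the letters of this window and is not evidence of binding, and boxes farther away or in introns were not searched.

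The counts on genes summed to between 14481179 and 19797407 per aorta, so that the limit left by a count of 0, taken as 3 counts, was 0.152 to 0.207 CPM (the unit of all levels here, a count relative to the library total after TMM scaling in edgeR). The members were far above this limit, with between 769 counts (Des) and 162650 counts (Acta2) in an aorta. Fam3a itself was at 24.4 ± 4.27 CPM (SD) in the 6 Ad-sham aortas and at 24.0 ± 4.64 CPM (SD) in the 7 Ad-FAM3A aortas, a log2 fold change of -0.03 (SE 0.16), so the delivered gene was not seen to be higher and directions below refer to the labels. A few aortas stood apart in transcripts of other tissues. Myh6, the cardiac alpha myosin heavy chain, had 102.9 CPM in Ad-sham1, 78.6 in Ad-FAM3A6 and 29.4 in Ad-sham3, against 0.3 to 2.4 elsewhere. The summed level of 7 B-cell genes did not exceed 356.3 CPM in 11 aortas but was 4984 CPM in Ad-FAM3A7 and 15801 CPM in Ad-FAM3A6. For 6 kidney tubule genes it was 648.0 CPM in Ad-sham6, 354.8 in Ad-FAM3A3, 214.3 in Ad-sham3 and 148.4 in Ad-sham5, against 0.606 to 35.5 CPM in the other 9 aortas. For 7 sympathetic neuron genes it ran from 65.5 CPM in Ad-sham2 to 1708 CPM in Ad-sham5 and 1907 CPM in Ad-FAM3A3.

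Levels of different genes were compared per length of the gene model, as CPM per kilobase, with the median over the 13 aortas. Acta2 was highest at 2579, followed by Myl9 at 900.8, Myh11 at 267.8, Cnn1 at 208.2, Tpm2 at 162.4, Smtn at 87.8, Lmod1 at 74.8, Mylk at 49.7, Synpo2 at 33.8 and Des at 24.6. Acta2 was above Myl9 and Myl9 above Myh11 in 13 of 13 aortas, with median ratios of 3.62 and 3.14. Tpm2 was also above Smtn and Mylk above Synpo2 in 13 of 13 aortas, with median ratios of 2.29 and 1.44. The other neighbours were not separated everywhere. Myh11 exceeded Cnn1 in 9 of 13 aortas, Cnn1 exceeded Tpm2 in 12, Smtn exceeded Lmod1 in 10, Lmod1 exceeded Mylk in 11 and Synpo2 exceeded Des in 8. The order is that of RNA from the whole gene model, which pools all isoforms.

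The actin filament and its binding proteins came first. Acta2 (ENSMUSG00000035783, chromosome 19, 34241090 to 34255336 on GRCm38), the alpha actin of smooth muscle, had a lowest, median and highest level of 1871, 3899.5 and 7117 CPM in Ad-sham and of 1368, 6575 and 10205 CPM in Ad-FAM3A aortas. The median was higher in Ad-FAM3A, but the lowest and the highest of all 13 aortas were both in that group and the groups overlapped throughout. The log2 fold change of Ad-FAM3A over Ad-sham was 0.42 ± 0.43 (SE) (adjusted p = 0.854, quasi-likelihood test of edgeR, adjusted by Benjamini-Hochberg over all genes tested; two-sided exact permutation test over 1716 splits, p = 0.492). Tpm2 (ENSMUSG00000028464, chromosome 4, 43514711 to 43523765), the beta-tropomyosin that lies along the actin filament, ranged from 153.3 to 954.1 CPM around a median of 408.5 in Ad-sham and from 121.5 to 1124 CPM around a median of 472.5 in Ad-FAM3A. Both groups held low and high aortas, and the log2 fold change was 0.21 ± 0.48 (SE) (edgeR adjusted p = 0.927; exact permutation p = 0.819).

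Cnn1 (ENSMUSG00000001349, chromosome 9, 22099216 to 22109630), calponin, which binds actin and slows the myosin ATPase, had 275.4, 479.8 and 841.7 CPM as lowest, median and highest value in Ad-sham and 165.9, 990.8 and 1489 CPM in Ad-FAM3A. The Ad-FAM3A median was above the highest Ad-sham aorta, while the lowest of all aortas, Ad-FAM3A6, was also in that group. Its log2 fold change, 0.68 ± 0.44 (SE), was the highest of the 10 but did not pass (edgeR adjusted p = 0.812; exact permutation p = 0.348). Lmod1 (ENSMUSG00000048096, chromosome 1, 135324807 to 135368065), leiomodin, which starts new actin filaments in smooth muscle, ranged from 77.5 to 487.7 CPM with a median of 269.6 in Ad-sham and from 55.1 to 668.5 CPM with a median of 338.7 in Ad-FAM3A. Lmod1 had the widest range of the members, 12.1-fold between its lowest and its highest aorta, and a log2 fold change of 0.24 ± 0.48 (SE) (edgeR adjusted p = 0.918; exact permutation p = 0.846).

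The motor and its switch were next. Myh11 (ENSMUSG00000018830, chromosome 16, 14194535 to 14291372), the heavy chain of smooth muscle myosin and one of the most specific markers of this cell type, had 535.9, 1896.5 and 3628 CPM as lowest, median and highest level in Ad-sham and 493.7, 2035 and 4739 CPM in Ad-FAM3A. The groups covered nearly the same range and the log2 fold change was 0.19 ± 0.47 (SE) (edgeR adjusted p = 0.937; exact permutation p = 0.824). Myl9 (ENSMUSG00000067818, chromosome 2, 156775420 to 156781658), the regulatory light chain whose phosphorylation starts contraction, had 266.7, 905.6 and 2070.4 CPM in Ad-sham and 237.1, 1085 and 2276 CPM in Ad-FAM3A. Its difference, 0.24 ± 0.51 (SE) on the log2 scale, was within the spread of the aortas (edgeR adjusted p = 0.924; exact permutation p = 0.788). Mylk (ENSMUSG00000022836, chromosome 16, 34745210 to 35002420), the light chain kinase, had 222.9, 587.4 and 709.2 CPM in Ad-sham and 179.8, 530.1 and 995.0 CPM in Ad-FAM3A. This gene also encodes telokin, a shorter protein from its end, and the counts do not separate them. For Mylk the Ad-FAM3A median was the lower one, while the log2 fold change of 0.13 ± 0.36 (SE) pointed the other way (edgeR adjusted p = 0.945; exact permutation p = 0.881).

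The last 3 members anchor and stiffen the filaments. Smtn (ENSMUSG00000020439, chromosome 11, 3517523 to 3540612), smoothelin, an actin-binding protein of contractile smooth muscle, had 87.5, 362.7 and 500.3 CPM as lowest, median and highest value in Ad-sham and 73.9, 384.5 and 681.5 CPM in Ad-FAM3A, with a log2 fold change of 0.08 ± 0.45 (SE) (edgeR adjusted p = 0.971; exact permutation p = 0.956). Synpo2 (ENSMUSG00000050315, chromosome 3, 123076519 to 123236149), synaptopodin 2, which bundles actin at dense bodies, had 170.6, 421.5 and 555.3 CPM in Ad-sham and 127.8, 443.8 and 934.1 CPM in Ad-FAM3A. The Ad-FAM3A aortas reached higher, but their median was close to that of Ad-sham, and the log2 fold change was 0.44 ± 0.39 (SE) (edgeR adjusted p = 0.838; exact permutation p = 0.488). Des (ENSMUSG00000026208, chromosome 1, 75360329 to 75368579), desmin, the intermediate filament of muscle, which cardiac and skeletal muscle also express, had 51.8, 94.1 and 152.1 CPM in Ad-sham and 54.3, 92.5 and 217.3 CPM in Ad-FAM3A. Its range was the narrowest of the members, 4.19-fold over all aortas, and its log2 fold change was 0.21 ± 0.34 (SE) (edgeR adjusted p = 0.902; exact permutation p = 0.809). Genes on the opposite strand cover 16.3% of the exon bases of Smtn (Gm11946 and Gm11947), 6.85% of Mylk (E130310I04Rik and Gm21691) and 5.86% of Des (Gm15179), and since the strand setting of the counting was not stated, the counts of these 3 genes are less certain.

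**Figure D1:**
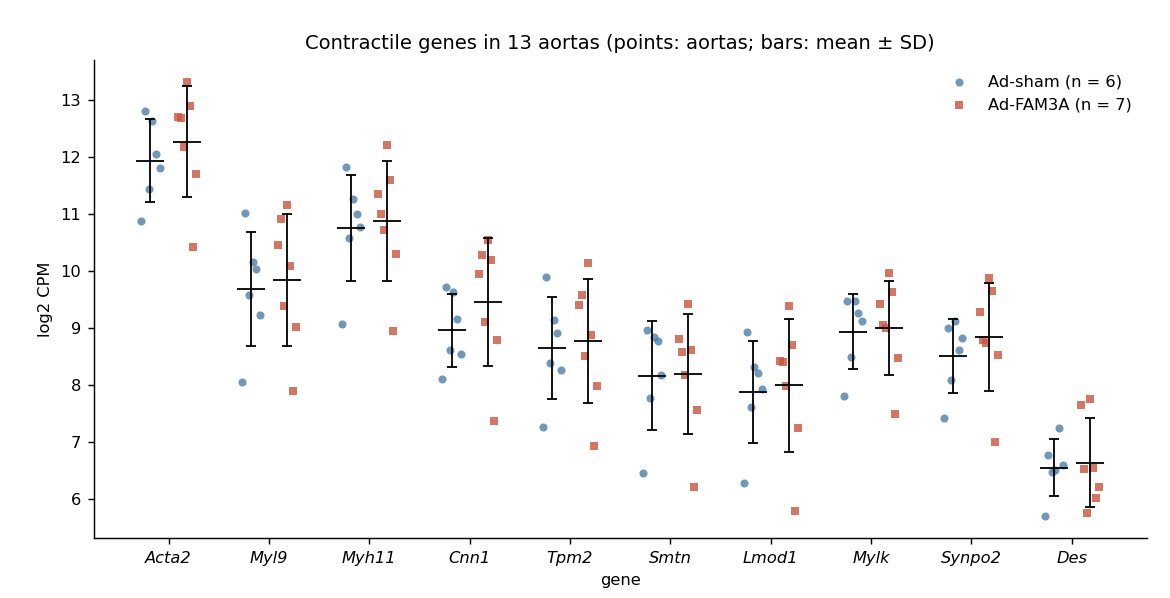
Log2 CPM of the 10 contractile genes (y axis) in each of 6 Ad-sham aortas (circles) and 7 Ad-FAM3A aortas (squares), ordered by level per gene length, with the mean and SD of each group. For every gene the 2 groups overlap.

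Between the virus groups, 0 of the 10 contractile genes were differentially expressed at an adjusted p under 0.05 by edgeR's quasi-likelihood test, where the share over all genes tested was 0%. At an unadjusted p under 0.05 the count was also 0 of 10, while 2.98% of all genes tested were higher and 2.93% lower in Ad-FAM3A. DESeq2 and limma-voom likewise gave 0 of 10, adjusted or not. The groups were fully separated for 0 of 10 members and for 0.0949% of all genes tested. The fitted log2 fold change was above 0 for 10 of 10 members, against 50.4% of all genes, with a median of 0.22, against 0.0032 over all genes tested. Adipocyte markers lay the other way between the groups. The summed level of 8 adipocyte genes, all detected in every aorta, ranged from 3644 to 11618 CPM with a median of 5973 in Ad-sham and from 2507 to 7505 CPM with a median of 3561 in Ad-FAM3A, with overlap. Plin1, which coats the fat droplet, had a log2 fold change of -0.73 (SE 0.31), and Ucp1, the uncoupling protein of brown fat, of -1.02 (SE 0.45), and neither passed the adjusted threshold. Lep, of the same list, ranged from 1.03 to 59.0 CPM in Ad-sham and from 1.25 to 61.0 CPM in Ad-FAM3A. Over the 13 aortas the adipocyte sum had a Pearson's r of -0.0015 and a Spearman's rho of 0.23 with the mean log2 CPM of the 10 members. The part of fat in the members' fold changes was not tested. The 10 values are not independent of each other, since the genes varied together from aorta to aorta, and leaving out Ad-FAM3A4 gave each of the 10 its lowest value. Without Ad-FAM3A4 the fold change was above 0 for 3 of 10 members and the median was -0.03, and without Ad-sham1 it was above 0 for 7 of 10 with a median of 0.04. Leaving out Ad-sham2 moved the median to 0.51. Cnn1, Acta2 and Synpo2 stayed above 0 whichever aorta was left out, with ranges of 0.51 to 0.87, 0.23 to 0.62 and 0.25 to 0.61. Cnn1 passed an unadjusted p under 0.05 without Ad-FAM3A6 (log2 fold change 0.87, SE 0.35), the aorta lowest in it, and did so again without both B-cell-rich aortas (1.02, SE 0.33), where Synpo2 did too (0.72, SE 0.31). The share of all genes tested that passed this threshold was 5.38% in the former fit and 6.27% in the latter. With the adjustment over all genes neither passed.

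**Figure D2:**
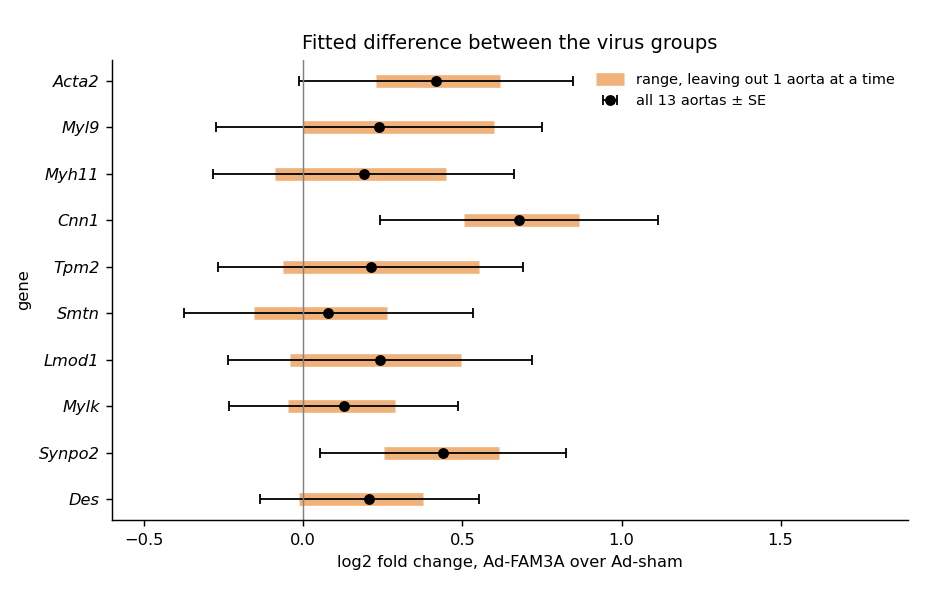
Log2 fold change of each contractile gene, Ad-FAM3A over Ad-sham (x axis, points with standard error), from edgeR's quasi-likelihood fit on all 13 aortas, and the range when 1 aorta at a time was left out (bars). For 7 of the 10 genes the range reaches below 0, and for Acta2, Cnn1 and Synpo2 it stays above.

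The spread between aortas was wider than the difference between groups. The mean log2 CPM over the 10 genes was 9.001 ± 0.755 (SD, n = 6) in Ad-sham and 9.188 ± 0.975 (SD, n = 7) in Ad-FAM3A. It was highest in Ad-FAM3A4 at 10.37, then 9.84 in Ad-sham2, 9.74 in Ad-FAM3A1, 9.68 in Ad-FAM3A5 and 9.58 in Ad-FAM3A2. The middle of the order was Ad-sham4 at 9.51, Ad-sham5 at 9.33, Ad-FAM3A3 at 8.95 and Ad-sham6 at 8.93, and the low end was Ad-sham3 at 8.70, Ad-FAM3A7 at 8.58, Ad-sham1 at 7.70 and Ad-FAM3A6 at 7.41. Both groups thus had aortas near the top and near the bottom. Ad-FAM3A4 was the highest aorta for 10 of 10 members, Ad-FAM3A6 was the lowest for 9, and Ad-sham1 was the lowest for Des and within the lowest 2 for all 10. Together the 10 genes took 2.28% of all counts in Ad-FAM3A4 and 0.311% in Ad-FAM3A6. The SD of log2 CPM over the aortas had a median of 0.94 over the members (0.64 for Des to 1.04), against 0.46 over all genes tested and 0.40 over the 1844 genes with a mean at least that of the lowest member. In RNA from a whole aorta, fewer smooth muscle cells and less RNA per cell cannot be told apart.

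Markers of other tissues moved with part of this order. The 2 aortas lowest in the contractile genes were also the highest in the 9 cardiac genes, with summed levels of 328.1 CPM in Ad-sham1 and 227.4 CPM in Ad-FAM3A6, against 42.3 to 119 CPM in the other 11. Of these 9 genes, Nppa, Myl7, Myl3 and Mybpc3 were at 0 in at least 1 aorta. One gene, Ryr2, a calcium release channel, did not follow the rest of the list, with 31.1 CPM in Ad-sham1, 30.6 CPM in Ad-FAM3A6 and 29.4 to 102.6 CPM in the other 11 aortas. The other 8 cardiac genes summed to 297.0 CPM in Ad-sham1 and 196.9 CPM in Ad-FAM3A6, against 7.34 to 79.1 CPM elsewhere, with a median of 12.4 CPM and the top value in Ad-sham3. With the members' mean over the 13 aortas these 8 genes had an r of -0.69 and a rho of -0.31, and r was -0.03 without the 2 aortas farthest from the median, Ad-FAM3A6 and Ad-sham1, so the negative relation rests on those 2. Ryr2 alone had an r of 0.60, a rho of 0.49 and an r of 0.42 without them, and the full list of 9 genes had -0.60, -0.32 and 0.25. For the 7 B-cell genes, all detected in every aorta, r was -0.78, rho was -0.88 and r without these 2 aortas was -0.70. Values for the 7 sympathetic neuron genes, of which Dbh and Snap25 were at 0 in at least 1 aorta, were -0.52, -0.61 and -0.68. For the 6 pericyte genes, some of which smooth muscle also expresses, r was 0.71, rho was 0.58 and r without these 2 aortas was 0.41, and for 8 endothelial genes the values were 0.63, 0.54 and 0.33. All levels in an aorta share 1 library total, and these correlations are given as descriptions with n = 13 and no test. The part of these tissues in the spread of the contractile genes was not tested. Without Ad-sham1, Ad-sham3 and Ad-FAM3A6, the 3 aortas with the most Myh6, the median log2 fold change of the members was 0.13 and 9 of 10 were above 0, the exception being Smtn at -0.06. Without Ad-FAM3A6 and Ad-FAM3A7, the 2 aortas with the most B-cell transcripts, the median was 0.57 and 10 of 10 were above 0.

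**Figure D3:**
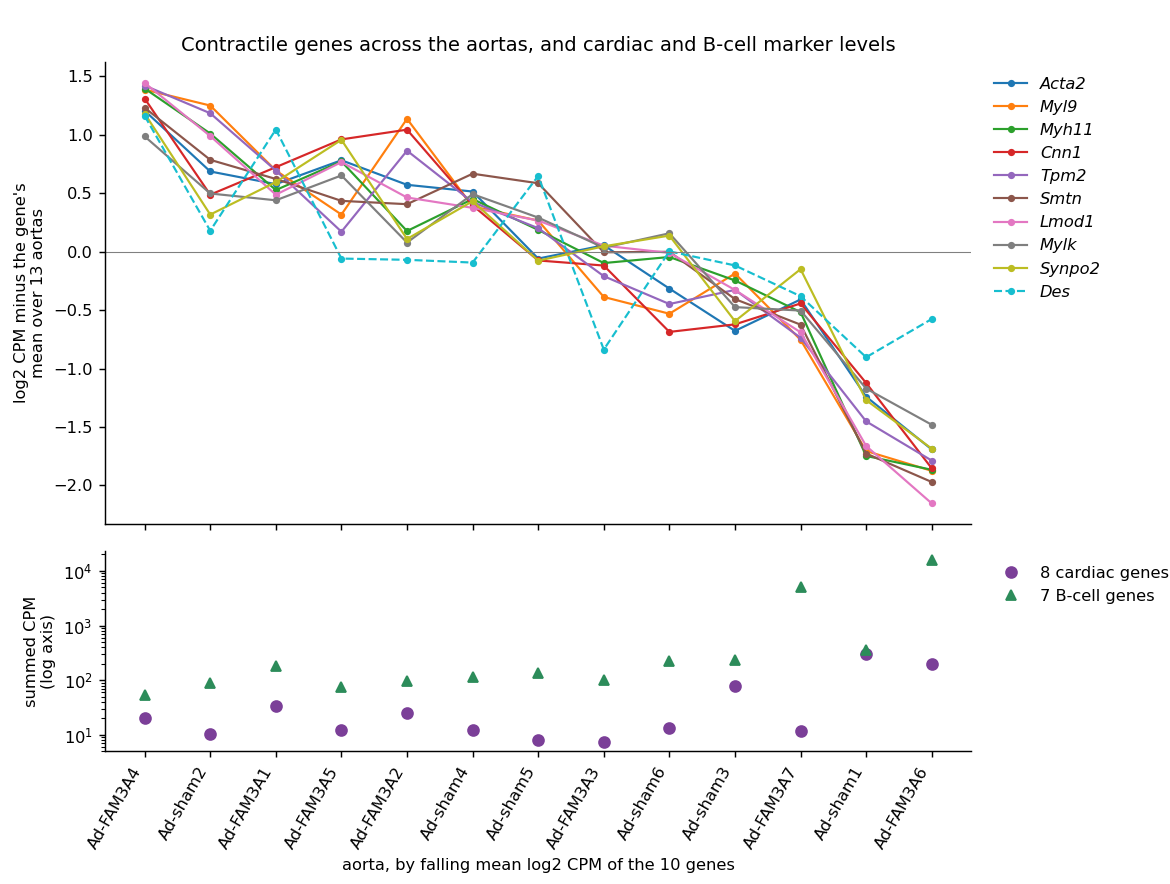
Upper panel, log2 CPM of each contractile gene minus its mean over the 13 aortas, with aortas ordered by the mean of the 10 genes, and lower panel, summed CPM of the 8 cardiac genes other than Ryr2 and of 7 B-cell genes on a log axis. The lines run together from Ad-FAM3A4 to Ad-FAM3A6 apart from Des (dashed), and the cardiac sum is highest in the 2 aortas at the right.

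The genes varied together. Over the 45 pairs of members, Pearson's r of log2 CPM across the 13 aortas ranged from 0.64 to 0.99 with a median of 0.94, and Spearman's rho from 0.68 to 0.99 with a median of 0.91. Within the groups the median r was 0.93 over the 6 Ad-sham and 0.96 over the 7 Ad-FAM3A aortas. Myl9 with Tpm2 and Myh11 with Lmod1 had the highest values, 0.99 each. Des stood apart from the other 9 genes, with r from 0.64 to 0.74 in its 9 pairs, whereas the 36 pairs without Des ran from 0.84 to 0.99. Without the 2 aortas farthest from the median, the 45 values ran from 0.50 to 0.99 with a median of 0.85, so the joint movement did not rest on those aortas alone. Against the mean of the other 9 members, r was highest for Lmod1 at 0.99 and lowest for Des at 0.72.

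**Figure D4:**
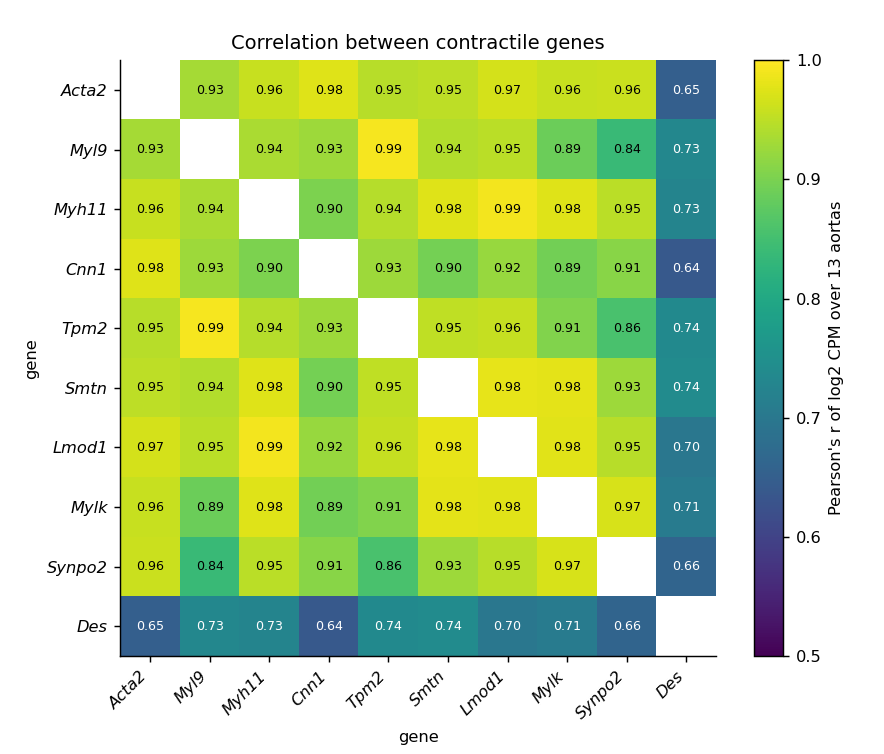
Pearson's r of log2 CPM over the 13 aortas for each pair of contractile genes (both axes), in numbers and colour. The row of Des holds the lowest values, 0.64 to 0.74, and the other pairs lie at 0.84 or above.

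To compare the make-up of the apparatus rather than its amount, the level of each gene was taken relative to the mean log2 CPM of the other 9 in the same aorta. On this scale Cnn1 was at -0.05 ± 0.30 (SD, n = 6) in Ad-sham and at 0.30 ± 0.27 (SD, n = 7) in Ad-FAM3A, with 7 of 7 Ad-FAM3A aortas above the Ad-sham median, and the groups overlapped. Acta2 was at 3.25 ± 0.21 in Ad-sham and 3.42 ± 0.13 in Ad-FAM3A, again with 7 of 7 above the Ad-sham median and overlapping groups. Smtn was at -0.93 ± 0.27 in Ad-sham and -1.10 ± 0.14 in Ad-FAM3A, where 1 of 7 aortas was above that median. These relative levels were not tested, since each is computed from the other members. Des had the widest range of relative levels, 2.01, from -3.54 in Ad-FAM3A3 to -1.53 in Ad-FAM3A6, the aorta second highest in cardiac transcripts. Its relative level was -2.22 in Ad-sham1 and -2.47 in Ad-sham3, the other aortas with raised Myh6, but also -2.31 in Ad-sham5, where Myh6 was 1.2 CPM. In Ad-FAM3A1 it was -2.33, with Myh6 at 0.30 CPM. Skeletal muscle genes summed to 65.2 CPM in Ad-FAM3A1 and to 6.45 CPM in Ad-sham5. Since Des varied least of the members, its relative level tends to rise where the other 9 are low. How far desmin from cardiac or skeletal muscle contributes was not tested. Myl9 and Tpm2 were both at their highest relative level in Ad-sham2 or Ad-FAM3A2, at 1.31 and 1.47 for Myl9 and at 0.06 and -0.0019 for Tpm2.

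**Figure D5:**
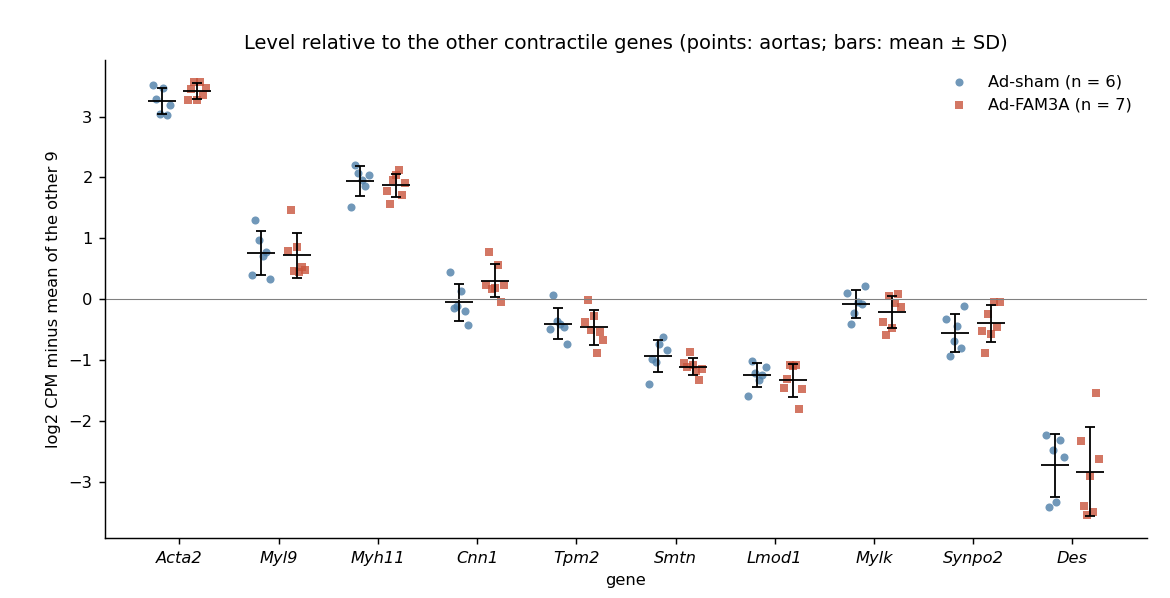
Level of each contractile gene relative to the mean log2 CPM of the other 9 in the same aorta (y axis), in 6 Ad-sham aortas (circles) and 7 Ad-FAM3A aortas (squares) with mean and SD. Cnn1 and Acta2 lie higher in Ad-FAM3A with overlap, and Des spreads most.

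Other genes of the same machinery were read from 3 lists. Of 18 filament partners, all were tested and 0 passed the adjusted threshold by edgeR's quasi-likelihood test. At an unadjusted p under 0.05, 2 were higher in Ad-FAM3A and 0 lower, and 17 of 18 fitted values were above 0 with a median of 0.32. For these lists too the shares over all genes tested were 2.98% higher, 2.93% lower and 50.4% above 0. The pair were Tagln and Myl12b. Tagln, which encodes the actin-binding protein SM22, had 10.8, 18.9 and 26.3 CPM as lowest, median and highest value in Ad-sham and 7.95, 31.9 and 50.6 CPM in Ad-FAM3A, a log2 fold change of 0.79 ± 0.36 (SE) (edgeR adjusted p = 0.810; exact permutation p = 0.159). This level is low beside Acta2, and 67.9% of the exon bases of Tagln also lie in exons of other genes (Pcsk7 and Gm48529), so its counts are uncertain. Myl12b, a light chain of nonmuscle myosin, averaged 3.76 ± 0.996 CPM (SD) over the Ad-sham and 6.19 ± 1.57 CPM (SD) over the Ad-FAM3A aortas, a log2 fold change of 0.72 ± 0.25 (SE) (edgeR adjusted p = 0.810; exact permutation p = 0.0111), and 26.7% of its exon bases lie in exons of another gene entry. Actg2, the gamma actin of smooth muscle, and Actb, the cytoplasmic beta actin, had log2 fold changes of 0.76 (SE 0.37) and 0.41 (SE 0.20), and Cald1 (caldesmon) and Tpm1 (alpha-tropomyosin) of 0.17 (SE 0.36) and 0.29 (SE 0.38). The nonmuscle heavy chain Myh10 was the exception, at -0.05 ± 0.33 (SE).

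Of 18 genes of the light chain switch and of calcium sensitivity, 0 passed at either threshold, and 16 fitted values were above 0 (50.4% over all genes tested) with a median of 0.18. Ppp1r12a and Ppp1r12b, targeting subunits of myosin phosphatase, were at 0.33 (SE 0.30) and 0.35 (SE 0.42), and Ppp1r14a, which encodes the phosphatase inhibitor CPI-17, at 0.17 (SE 0.62). Ppp1r14a followed the contractile genes across the aortas (r = 0.93, rho = 0.93, n = 13, no test), as did Ppp1r12b (r = 0.94, rho = 0.90). Camk2g (r = 0.98, rho = 0.95) and Ppp1r12c (r = 0.95, rho = 0.93) did so too, and Rhoa did so less (r = 0.26, rho = 0.24). Of the 18 genes, 4 had an r above 0.9 and 3 an r below 0.

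The list of dense plaques and dense bodies held 32 genes. None passed the adjusted threshold by edgeR's quasi-likelihood test, and at an unadjusted p under 0.05 the counts were 0 higher (2.98% over all genes tested) and 1 lower (2.93%), with 28 fitted values above 0 (50.4%) and a median of 0.28. Ldb3 and Itga5, a PDZ and LIM domain protein and an integrin chain, had the highest fold changes at 0.85 (SE 0.41) and 0.80 (SE 0.42), and neither passed. Vcl (vinculin) was at 0.27 (SE 0.32), and Ilk (integrin-linked kinase) averaged 0.876 ± 0.581 CPM (SD) in Ad-sham and 0.979 ± 0.550 CPM (SD) in Ad-FAM3A, with 89.7% of its exon bases in exons of other genes (Taf10 and Rrp8). A direction shared by most genes of these lists is subject to the same limit as for the members, because the median r with the members' mean was 0.85, 0.57 and 0.82 in the 3 lists.

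Across all genes that are no members, the 10 most like the members' mean over the 13 aortas were Pdlim7, Smarcd3 and Slc8a2 (r = 0.99 each) and Scube3, Tgfb1i1, Camk2g, Mylk2, Jph2, Dmpk and Cavin3 (r = 0.98 each). Pdlim7, a PDZ and LIM domain protein of the actin cytoskeleton, had 39.6, 158.7 and 293.8 CPM as lowest, median and highest of the 13 aortas, with the lowest in Ad-sham1 and the highest in Ad-FAM3A4. Smarcd3, a subunit of the BAF chromatin remodelling complex, ranged from 10.03 to 72.2 CPM, and Slc8a2, a sodium-calcium exchanger, from 2.81 to 19.1 CPM, both from Ad-FAM3A6 to Ad-FAM3A4. Without the 2 farthest aortas their r was 0.98, 0.96 and 0.96. The 5 genes with the lowest r were Fam49a (-0.95), Dpp4 (-0.94), Prpsap2 (-0.90), Sh3kbp1 (-0.90) and Umad1 (-0.88). Dpp4, a surface peptidase, had its lowest level, 3.26 CPM, in Ad-FAM3A4 and its highest, 39.1 CPM, in Ad-FAM3A6. Over the 15801 genes compared, 248 had an r above 0.9 and 3 an r below -0.9, and the median r was -0.02.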

How the data were processed

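Aortic RNA of 13 AngII-infused ApoE-/- mice was analysed, 6 Ad-sham and 7 Ad-FAM3A, grouped by the labels. The authors aligned reads to GRCm38 with Hisat2, counted them per gene with FeatureCounts and deposited the counts without normalization. The table also holds a gene length in bases from the authors, used here only for levels per kilobase. Strand, annotation release and the handling of reads with several matches were not given in the sources used here, and the labels and the methods name different RNA and library kits. Group means of FPKM were not used. Total counts were 14481179 to 19797407 per aorta, and 3 counts equalled 0.152 to 0.207 CPM, which covers counting error only. Labels state no shared batch, and 0 sample columns were left unmapped. The least different replicates still differed beyond sampling noise (chi-square per degree of freedom 45.1).

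In R 4.3.3, counts were normalized by TMM, filtered by filterByExpr and compared by the quasi-likelihood test of edgeR 4.0.16, with Benjamini-Hochberg adjustment over 15811 genes and a threshold of 0.05. The standard error (SE) of a log2 fold change was its size over the root of the F statistic. Log2 CPM used a prior count of 2, and single genes were also compared by two-sided exact permutation over 1716 splits, with 0.000583 as the smallest possible p. The labels do not say whether aortas came from separate cages or days, so p-values measure the spread between these aortas. Exon overlaps were taken from GENCODE M21, which gave the table's coordinates for 9 of 10 members, the exception being Acta2. Windows of 50 bases from each longest coding transcript were searched in all other genes, and at most 0.4% of a member's windows (Myh11) were shared. The code was tested on simulated data. Alternatives were DESeq2 1.42.0 and limma 3.58.1 (voom), other normalizations and filters, a block for the replicate number, and fits without each aorta in turn. Leaving out the aortas rich in cardiac or B-cell transcripts, the cardiac list without Ryr2, and the fit of 12 aortas without the block, were chosen after seeing the data. The members, the lists and the genes named (members, lists, Fam3a, and the 10 most and 5 least correlated genes) were chosen with earlier results of these data known. Results of a few listed genes are not reported here.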

Additional observations from a re-analysis of the deposited data

Results flagged for a closer look

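Among 44 groups of 6 or 7 aortas examined, where chance would mark about 2.2, 1 had an aorta far from the others. The level of Myl9 relative to the mean log2 CPM of the other 9 contractile genes was 1.47 in Ad-FAM3A2, against 0.45 to 0.86 in the other 6 Ad-FAM3A aortas. In Ad-sham2 the same measure was 1.31.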

How the results depend on the processing

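The direction of each member and its side of the unadjusted threshold were the same in 70 of 70 values under other normalizations, filters and tests, and the members' median log2 fold change was 0.14 (limma-voom) to 0.24 there. DESeq2, which keeps more low genes, called 10 of 30727 genes differentially expressed, none of them a member, where edgeR called 0 of 15811, and 0 of 30782 with no filter on low counts. At an unadjusted p under 0.05 the shares were 5.91% for edgeR, 4.88% for DESeq2 and 4.44% for limma-voom. Leaving out 1 aorta at a time, the median ranged from -0.027 to 0.51, the members above 0 from 3 to 10 and those with an unadjusted p under 0.05 from 0 to 1. With both B-cell-rich aortas left out the last count was 2, the median was 0.57, and 6.27% of all genes tested passed there. Without Ad-FAM3A4, 7 members turned below 0, and the ranges over single aortas left out were -0.089 to 0.45 for Myh11, -0.16 to 0.26 for Smtn, -0.040 to 0.50 for Lmod1, -0.048 to 0.29 for Mylk, -0.013 to 0.38 for Des, -0.00064 to 0.60 for Myl9 and -0.063 to 0.55 for Tpm2. Myh11 (-0.015), Smtn (-0.12) and Mylk (-0.034) also turned without Ad-sham1, and Smtn without Ad-sham3 (-0.016) and without the 3 aortas richest in cardiac transcripts (-0.062), each by less than its standard error. The causes were not tested. Without the 2 aortas farthest from the median, the correlation of the members' mean changed sign for the cardiac (0.25, from -0.60), fibroblast (-0.0088, from 0.45) and adipocyte (0.086, from -0.0015) lists, while the cardiac list without Ryr2 went from -0.69 to -0.03. The other lists had, over all aortas and without these 2, an r of -0.33 and -0.24 for macrophages, -0.48 and -0.28 for T cells, -0.26 and -0.51 for Schwann cells, -0.14 and -0.60 for kidney tubule and -0.21 and -0.13 for skeletal muscle. With the replicate block on 12 aortas, 0 genes were called and the median was 0.27, against 0.36 on these 12 without it. No pairing by number was seen, with correlations of -0.33 to 0.45 for same-numbered aortas and 1 of 6 Ad-sham aortas closest to its own number. This check cannot exclude a shared cage or day, because transcripts of other tissues also differ between the aortas. The lowest count of a member in an aorta was 769.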
